A study of Mus musculus with 20 samples.

Results

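Expression of 9 genes of fibroblast growth factor (FGF) signaling was examined in plantaris muscle of old mice: the ligands Fgf1, Fgf2 and Fgf7, the receptors Fgfr1, Fgfr2, Fgfr3, Fgfr4 and Fgfrl1, and the carrier Fgfbp1. The genes were chosen by name among the 22660 rows of the count table, and all 9 had a row. The choice was made with earlier results of these data known, so the values are given as a description, and the adjusted p-values only place each gene within the fit over all genes. The 20 male C57BL/6J mice, given as 2 years old in the labels, formed 4 groups of 5 different animals each. Sham surgery opened the skin only, and mechanical overload (MOV) removed part of the gastrocnemius and soleus of both legs, leaving the plantaris to carry their work. By gavage the mice received either polyethylene glycol alone (vehicle) or D + Q, the tyrosine kinase inhibitor dasatinib at 5 mg/kg with the plant flavonoid quercetin at 50 mg/kg. Muscles were taken at day 14 after doses on days 7 and 10, although the series description puts the second dose of sham mice on day 14. No genetic alteration is named for any group, and every mouse was old, so no comparison with young muscle was made here.

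FGF ligands are secreted proteins that bind receptor tyrosine kinases on the cell surface, with heparan sulfate chains of proteoglycans as cofactor. The occupied receptor passes the signal through the adaptor FRS2 and the RAS-MAPK relay to transcription factors of the ETS family, and Sprouty proteins and dual-specificity phosphatases feed back on the relay. In skeletal muscle FGF2 is known as a mitogen of satellite cells, the muscle stem cells, in which FGFR1 and FGFR4 are the best studied receptors. FGFBP1 is a secreted carrier that releases FGFs from heparan sulfate in the matrix, and muscle-derived FGFBP1 is known for its part in keeping the neuromuscular junction.

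Per mouse, between 17887495 and 26234505 estimated counts were deposited. Values are given as CPM, a gene's counts scaled to a common library total, with TMM factors, which correct library totals for composition and lay between 0.830 and 1.23, below 1 in every sham mouse and above 1 in every MOV mouse. The labels give no statement on litters or cages, so the p-values measure the spread between the sampled mice. The tissue label was checked with 8 genes of the fast fiber (Acta1, Ckm, Mylpf, Tnnt3, Tnni2, Myh1, Myh2 and Myh4), whose summed level lay between 77838 and 155579 CPM.

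On the GRCm39 annotation Fgf2 lies on chromosome 3 (37402473 to 37464257, plus strand) and Fgf7 on chromosome 2 (125876578 to 125934218, plus). Fgfr1 lies on chromosome 8 (26003670 to 26066824, plus), Fgfr2 on chromosome 7 (129763471 to 132725079, minus, with transcripts that reach into neighbouring genes) and Fgfr4 on chromosome 13 (55300352 to 55316572, plus). Chromosome 5 holds Fgfr3 (33879018 to 33894412, plus), Fgfrl1 (108840206 to 108858366, plus) and Fgfbp1 (44136200 to 44139151, minus). Whether counting used the strand is not given in the sources used here, so reads in the 3073 exonic bases that Fgf2 shares with Nudt6 on the opposite strand cannot be told apart from Nudt6 reads. The same holds for 1157 bases of Fgfr3 under an opposite unclassified transcript. Fgfr2 shares 314 exonic bases with the protein-coding gene Ctbp2 on the same strand, where even counting by strand could not separate the reads. The promoters of the 3 members with the largest changes after MOV with vehicle among the 8 tested are shown, Fgfbp1 for its fall and Fgfr3 and Fgfr4 for their joint rise. Each is the 250 bases before a RefSeq start on GRCm38.p6, read along the gene, with E-boxes (CANNTG) and GC boxes (GGGCGG on either strand) in capitals.
Fgfbp1, chr5:43981800-43982049, minus strand: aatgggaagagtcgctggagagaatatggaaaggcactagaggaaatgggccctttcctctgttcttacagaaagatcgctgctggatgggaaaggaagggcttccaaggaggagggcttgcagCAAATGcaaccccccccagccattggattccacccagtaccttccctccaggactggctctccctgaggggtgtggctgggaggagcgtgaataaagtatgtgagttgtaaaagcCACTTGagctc
Fgfr4, chr13:55152568-55152817, plus strand: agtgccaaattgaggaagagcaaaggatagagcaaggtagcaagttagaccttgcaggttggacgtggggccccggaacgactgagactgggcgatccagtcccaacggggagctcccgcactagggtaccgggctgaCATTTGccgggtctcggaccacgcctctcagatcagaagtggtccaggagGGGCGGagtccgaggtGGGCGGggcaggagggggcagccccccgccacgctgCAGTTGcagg
Fgfr3, first start, chr5:33721474-33721723, plus strand: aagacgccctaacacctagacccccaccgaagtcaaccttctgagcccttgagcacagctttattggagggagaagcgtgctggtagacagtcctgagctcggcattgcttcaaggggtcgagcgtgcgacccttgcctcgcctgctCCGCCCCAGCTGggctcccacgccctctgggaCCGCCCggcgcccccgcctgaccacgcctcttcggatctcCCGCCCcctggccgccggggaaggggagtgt
Fgfr3, second start, chr5:33722056-33722305, plus strand: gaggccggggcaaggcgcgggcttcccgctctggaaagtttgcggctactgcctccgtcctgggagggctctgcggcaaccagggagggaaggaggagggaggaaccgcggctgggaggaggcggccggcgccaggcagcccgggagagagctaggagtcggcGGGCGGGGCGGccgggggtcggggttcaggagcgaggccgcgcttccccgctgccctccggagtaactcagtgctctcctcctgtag
The Fgfbp1 window holds 2 E-boxes and no GC box, has 53.6% GC and contains 3 CpG. The Fgfr4 window holds 2 E-boxes and 2 GC boxes at 64.0% GC with 15 CpG. The first Fgfr3 window holds 1 E-box that directly follows the first of its 3 GC boxes, at 66.8% GC with 19 CpG, and the second holds 2 overlapping GC boxes at 72.8% GC with 24 CpG. Among 32851 promoter windows of this length, 66.2% hold an E-box and 32.7% a GC box, and the medians are 52.4% GC and 6 CpG. None of the 4 windows holds TATAAA (12.4% of all windows), the M-CAT letters CATTCC (12.6%) or the AP-1 letters TGACTCA (4.46%), searched on both strands. The Fgfr4 window alone of the 4 holds the ETS core CCGGAA, found in 12% of all windows. These letter matches describe the windows and say nothing of binding.

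MOV was compared with sham first within the vehicle mice, which asks how the muscles differ after this surgery without D + Q. Sham surgery removed no muscle, so overload and the surgical removal beside the plantaris cannot be told apart. Fgfr3 and Fgfr4 were more than 3-fold higher after MOV, Fgfbp1 was more than 4-fold lower, and Fgfr1 and Fgfrl1 rose by smaller steps. Fgf1 fell with TMM scaling but did not pass when only total counts were used, and Fgf2 and Fgf7 did not pass the test. In the D + Q mice the same 4 receptors rose and the same 2 genes fell, again with the Fgf1 call lost when only total counts were used. By edgeR's quasi-likelihood test with Benjamini-Hochberg adjustment over all genes, 6 of the 8 tested members passed in each treatment, 4 upward and 2 downward. Of all genes tested, 60.5% passed with vehicle (30.7% higher and 29.8% lower) and 65.3% with D + Q (34.4% higher and 30.9% lower), so the members' share is near that of all genes. Groups did not overlap for 3 tested members with vehicle and for 4 with D + Q, against 46.4% and 53.0% of all genes. Scaling by total counts alone moved the median change of all genes from -0.02 to 0.36 with vehicle and from 0.02 to 0.39 with D + Q (log2 scale). It also turned the 4482 higher and 4349 lower genes with vehicle into 7683 and 1453, and the 5129 and 4614 with D + Q into 8392 and 1654, and 5 and 7 members then passed. Whole muscle was sequenced, so fewer cells of a type and less RNA per cell cannot be told apart.

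**Figure D1:**
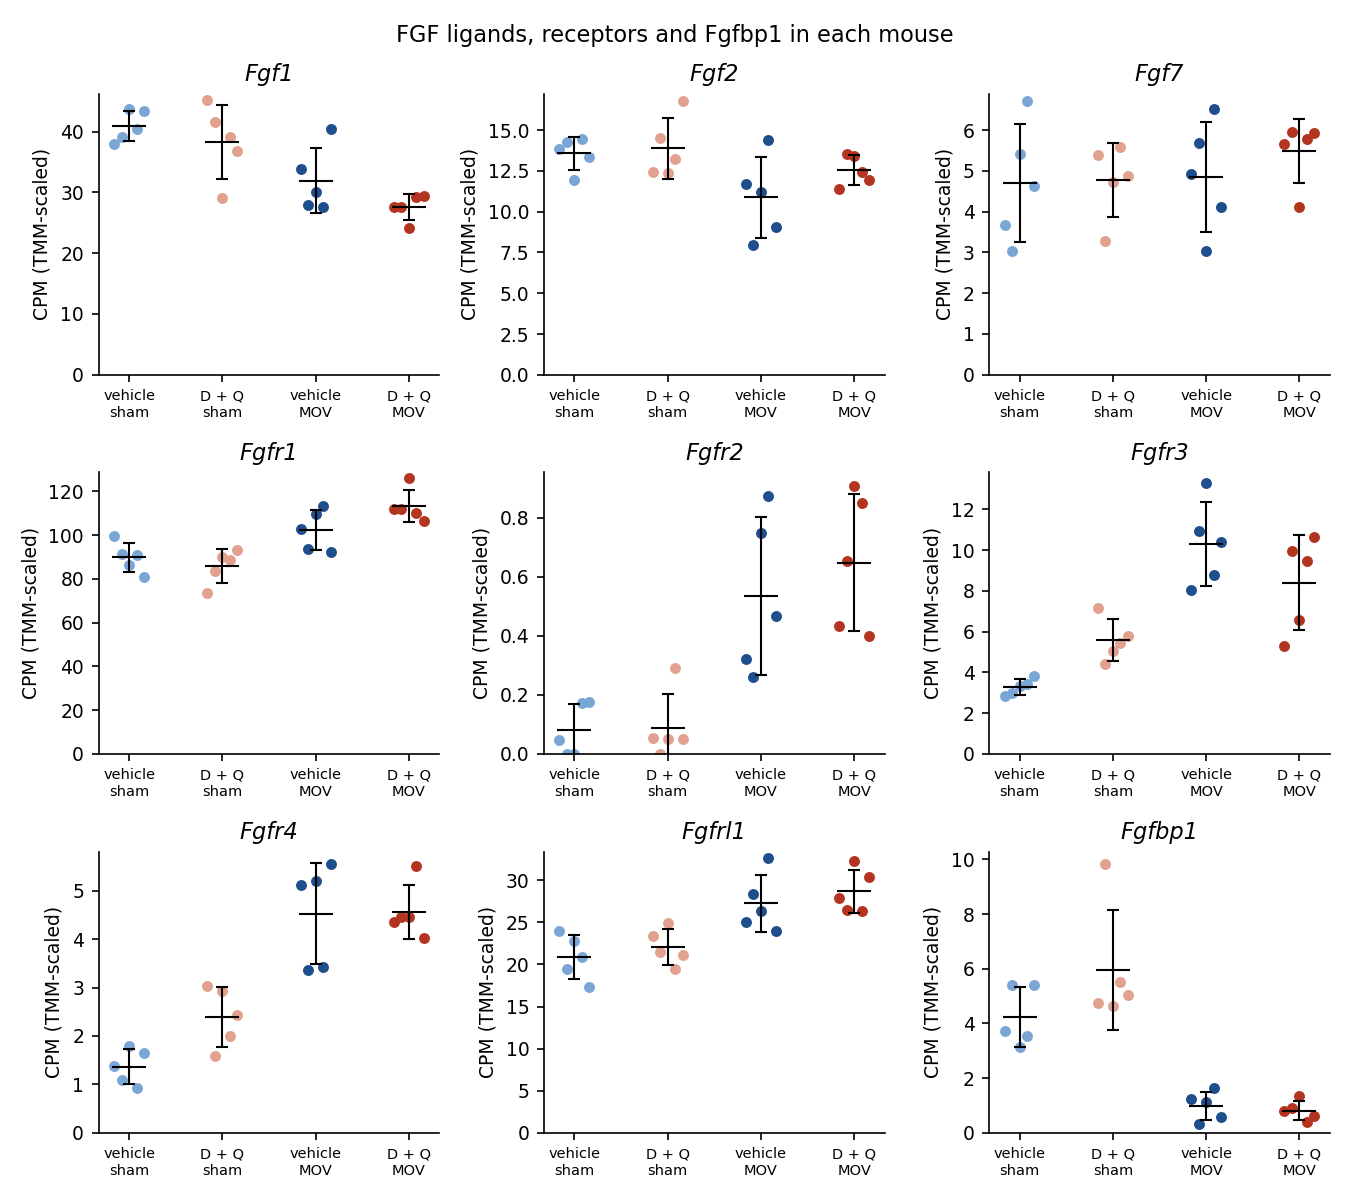
Level of each of the 9 genes in every mouse (points, TMM-scaled CPM, 5 mice a group) with the mean and SD of the 4 groups. Fgfr3 and Fgfr4 sit higher and Fgfbp1 lower in MOV mice, while D + Q sham mice lie above vehicle sham mice for Fgfr3, between 4.39 and 7.17 against 2.85 to 3.82 CPM.

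Among the ligands, Fgf1, which lies on chromosome 18 and binds all 4 kinase receptors, was the most abundant per length. Its levels were 38.0, 39.1, 43.7, 40.5 and 43.3 CPM in vehicle sham mice 1 to 5 and 33.8, 27.9, 30.0, 27.5 and 40.5 CPM in vehicle MOV mice. In D + Q sham mice they were 45.2, 41.5, 29.0, 39.1 and 36.8 CPM and in D + Q MOV mice 27.6, 27.6, 24.1, 29.3 and 29.4 CPM. MOV mice were lower on average in both treatments, with 1 overlapping mouse on the MOV side with vehicle (mouse 5) and 1 on the sham side with D + Q (mouse 3). Fgf1 fell by 0.35 on the log2 scale with vehicle (SE 0.10, adjusted p = 0.00669) and by 0.43 with D + Q (SE 0.10, adjusted p = 0.00119) under TMM scaling, against 0.02 and -0.07 with total counts only. Fgf2, the satellite cell mitogen, ranged from 11.9 to 14.5 CPM in vehicle sham and from 7.97 to 14.4 CPM in vehicle MOV mice, and from 12.4 to 16.8 CPM in D + Q sham and from 11.4 to 13.5 CPM in D + Q MOV mice. Its log2 change was -0.31 (SE 0.14, adjusted p = 0.0653) with vehicle and -0.11 (SE 0.098, adjusted p = 0.352) with D + Q, and with total counts only it was 0.08 and 0.26. Fgf7, also called keratinocyte growth factor and made by mesenchymal cells, had overlapping levels in all groups, with means between 4.70 and 5.48 CPM. Its changes were 0.06 (SE 0.23, adjusted p = 0.847) and 0.23 (SE 0.16, adjusted p = 0.206).

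Fgfr1, the main FGF receptor of this tissue by level, was high in every mouse. It stood at 99.4, 91.2, 86.4, 91.0 and 81.0 CPM in vehicle sham and at 103, 93.6, 109.6, 113 and 92.4 CPM in vehicle MOV mice. With D + Q it stood at 73.5, 83.5, 90.2, 88.6 and 93.0 CPM in sham and at 112, 112, 126, 110.3 and 107 CPM in MOV mice. Groups overlapped with vehicle and were separate with D + Q. The log2 rise was 0.20 (SE 0.078, adjusted p = 0.0399) with vehicle and 0.44 (SE 0.067, adjusted p = 1.48e-05) with D + Q, or 0.58 (adjusted p = 8.28e-05) and 0.81 with total counts only. The vehicle value passed by a narrow margin and was lost in 6 of the 10 fits that left out 1 mouse (vehicle sham 2, 3, 4 or 5, or vehicle MOV 3 or 4), with log2 changes from 0.16 to 0.25 over the 10 fits. In the fits that lost it 5 members passed, except without vehicle MOV mouse 4, where Fgf2 passed and the count stayed at 6.

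Fgfr3, a receptor best known from cartilage and bone growth, was at 2.85, 2.99, 3.31, 3.42 and 3.82 CPM in vehicle sham and at 8.02, 10.9, 13.3, 8.80 and 10.4 CPM in vehicle MOV mice. Every vehicle MOV mouse stood above every vehicle sham mouse, and the rise was 3.16-fold (log2 1.66, SE 0.16, adjusted p = 4.88e-07). With D + Q the levels were 7.17, 4.39, 5.07, 5.43 and 5.79 CPM in sham and 5.30, 9.98, 6.56, 9.46 and 10.7 CPM in MOV mice. These groups overlapped, since MOV mice 1 and 3 lay below sham mouse 1, and the rise was 1.54-fold (log2 0.63, SE 0.19, adjusted p = 0.00837), or 0.99 on the log2 scale with total counts only.

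Fgfr4, a receptor expressed in muscle progenitors, was at 1.38, 1.09, 1.78, 0.926 and 1.64 CPM in vehicle sham and at 5.12, 3.37, 5.19, 3.41 and 5.55 CPM in vehicle MOV mice. The groups did not overlap, and the rise was 3.33-fold (log2 1.74, SE 0.23, adjusted p = 1.42e-05). With D + Q it was at 3.04, 1.59, 2.92, 1.99 and 2.44 CPM in sham and at 4.36, 4.45, 4.45, 5.51 and 4.03 CPM in MOV mice. The D + Q groups were also separate, with a rise of 1.95-fold (log2 0.96, SE 0.19, adjusted p = 0.000187).

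Fgfr2, the receptor for Fgf7 in epithelia, was barely detected and did not reach the minimum of 10 counts in 5 mice within the MOV and sham comparisons. It had 1, 0, 0, 3 and 3 counts in vehicle sham and 8, 5, 16, 20 and 11 counts in vehicle MOV mice. In D + Q mice it had 1, 0, 1, 6 and 1 counts in sham and 11, 17, 21, 19 and 9 counts in MOV mice. Summed over mice, the depth-corrected ratio of MOV to sham was 6.82 with vehicle (60 against 7 counts, exact 95% interval 3.12 to 17.7) and 6.89 with D + Q (77 against 9 counts, 3.45 to 15.6), intervals that cover counting error only. In fits that included it, Fgfr2 was higher after MOV with vehicle by 2.67 on the log2 scale with no count filter (adjusted p = 0.00424 by edgeR) and by 2.67 with all 20 mice in one fit (adjusted p = 0.00136 by edgeR). With D + Q these changes were 2.77 (adjusted p = 0.000346 by edgeR) and 2.72 (adjusted p = 0.000571 by edgeR). The MOV mice of each treatment lay above all sham mice of that treatment.

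Fgfrl1, a receptor that lacks the intracellular kinase, ranged from 17.3 to 24.0 CPM in vehicle sham and from 24.0 to 32.7 CPM in vehicle MOV mice, which met at the border. With D + Q it ranged from 19.5 to 24.9 CPM in sham and from 26.3 to 32.3 CPM in MOV mice, with no overlap. The log2 rises were 0.39 (SE 0.10, adjusted p = 0.00452) and 0.42 (SE 0.079, adjusted p = 0.000167), or 0.78 and 0.79 with total counts only.

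Fgfbp1 fell furthest of the members. It was at 3.72, 5.41, 3.12, 3.53 and 5.40 CPM in vehicle sham and at 1.25, 0.311, 1.12, 1.62 and 0.593 CPM in vehicle MOV mice. In D + Q mice it was at 4.76, 9.81, 4.63, 5.53 and 5.03 CPM in sham and at 0.785, 0.921, 1.34, 0.403 and 0.619 CPM in MOV mice. No MOV mouse of either treatment reached the lowest sham mouse. The fall was 4.24-fold with vehicle (log2 -2.08, SE 0.33, adjusted p = 7.56e-05) and 7.02-fold with D + Q (log2 -2.81, SE 0.29, adjusted p = 2.26e-07). With total counts only it was -1.69 and -2.44 on the log2 scale.

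Markers of other cell types moved with these changes. Their counts stand beside 30.7% of all genes higher and 29.8% lower with vehicle, and 34.4% and 30.9% with D + Q. The summed level of 7 fibro-adipogenic progenitor markers (Pdgfra, Dcn, Lum, Col1a1, Col3a1, Dpt and Pi16) rose from between 409 and 594 CPM in vehicle sham to between 4624 and 9414 CPM in vehicle MOV mice, and from 492 to 1040.0 CPM to 8379 to 11435 CPM with D + Q, with 7 of 7 genes higher in each treatment. The sum is weighted to its most abundant genes and does not measure the number of these cells. Single genes of the list rose by 0.95 to 5.58 on the log2 scale with vehicle and by 0.94 to 5.09 with D + Q. The 6 macrophage markers went from 22.0 to 54.5 CPM to 105 to 308 CPM with vehicle and from 23.4 to 50.0 CPM to 234 to 287 CPM with D + Q, and all 6 rose in both. Satellite cell markers went from 29.2 to 39.0 CPM to 46.6 to 50.7 CPM with vehicle, where 4 of 5 tested rose, and from 33.4 to 35.8 CPM to 41.8 to 52.2 CPM with D + Q, where 4 rose and 1 fell of 6. Endothelial markers, 5 of 7 higher in each treatment, went from 137 to 195 CPM to 227 to 255 CPM with vehicle and from 143 to 216 CPM to 210.0 to 277 CPM with D + Q. The 8 fiber genes fell from between 136753 and 155579 CPM to between 79274 and 110698 CPM with vehicle and from 144801 to 155203 CPM to 77838 to 97448 CPM with D + Q, with 4 and 5 genes lower and 1 higher in each. Tendon cell markers rose in 4 of 4 and smooth muscle and pericyte markers in 4 of 6 in each treatment, Schwann cell markers in 1 of 5 (1 fell with D + Q), and adipocyte markers fell in 3 of 3 tested with vehicle and 1 of 3 with D + Q. No defining marker was at 0 in every mouse of a group. The part of these cell types in the changes of the FGF genes was not tested.

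**Figure D2:**
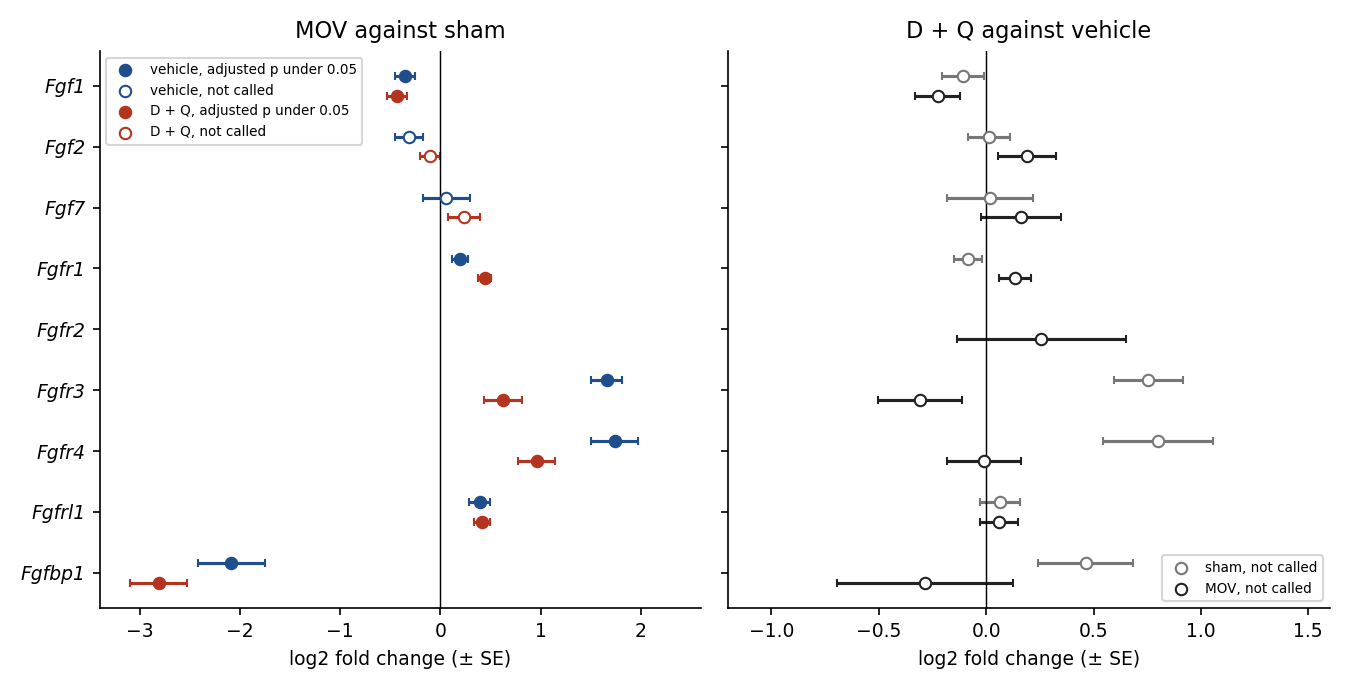
Log2 fold change of each gene (points, bars ± SE) for MOV against sham in each treatment and for D + Q against vehicle in each surgery. Fgfr2 has no point where its counts were too low to be tested, and Fgfr3 stands at 1.66 with vehicle and 0.63 with D + Q for MOV against sham.

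D + Q was compared with vehicle in sham mice to see what the drugs do without overload. Fgfr3 and Fgfr4 had higher mean levels with D + Q, 5.57 ± 1.03 against 3.28 ± 0.380 CPM and 2.39 ± 0.615 against 1.37 ± 0.361 CPM (SD, n = 5), but no member passed the adjusted threshold. The Fgfr3 groups did not overlap, at 1.69-fold (log2 0.75, SE 0.16, unadjusted p = 0.000189, adjusted p = 0.0644 by edgeR over 13926 genes). Fgfr3 passed with DESeq2 (adjusted p = 0.00420), with total counts only (adjusted p = 0.0361), with no filter on low counts (adjusted p = 0.0260) and without vehicle sham mouse 5 (adjusted p = 0.0407). It did not pass with RLE factors, in the joint fit of all mice, with the replicate block or in any other fit that left out 1 mouse. Fgfr4 groups overlapped at 1.74-fold (log2 0.80, SE 0.26, unadjusted p = 0.00576, adjusted p = 0.263 by edgeR). Fgfbp1 averaged 5.95 ± 2.19 CPM in D + Q mice against 4.24 ± 1.09 CPM (SD, n = 5; log2 0.46, SE 0.22, adjusted p = 0.492 by edgeR), and without D + Q sham mouse 2, at 9.81 CPM, the log2 difference was 0.22. Of 8 tested members, 0 passed after adjustment with edgeR, 2 were under 0.05 before it and 1 passed with DESeq2. Over all genes 30 (0.215%) passed with edgeR and 10.2% were under 0.05 before adjustment, while the groups of 2.05% did not overlap. The count of 30 ran from 2 without D + Q sham mouse 3 to 74 without vehicle sham mouse 5. The 5 other tested members had log2 differences between -0.11 and 0.06. Of the 7 fibro-adipogenic progenitor markers, 5 were under an unadjusted p of 0.05 by edgeR in this comparison. So were 3 of 4 tendon cell, 2 of 6 smooth muscle and pericyte and 1 of 7 endothelial markers, and no gene of the other marker lists. Of all these markers 0 passed, and the part of these cell types was not tested.

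In MOV mice, where the study asked how D + Q changes the response to overload, 0 of 9 members passed with edgeR or DESeq2. Of 15238 genes 0 passed with edgeR (0%), while 11 genes passed with DESeq2 and 2 with edgeR without vehicle MOV mouse 4. The study itself reported a far larger set of differing genes here, by DESeq2 at the threshold of 0.05 with its own count cutoff in other software. Why the counts differ was not tested. Before adjustment 1 member was under 0.05, as were 8.79% of all genes. That member was Fgf1, at 27.6 ± 2.15 CPM in D + Q mice against 31.9 ± 5.37 CPM (SD, n = 5; log2 -0.23, SE 0.11, unadjusted p = 0.0492, adjusted p = 0.563 by edgeR). Fgfr3 averaged 8.39 ± 2.33 CPM against 10.3 ± 2.05 CPM with vehicle (log2 -0.31, SE 0.20), and Fgfr4 4.56 ± 0.561 against 4.53 ± 1.05 CPM (log2 -0.01, SE 0.17). Fgfbp1 averaged 0.814 ± 0.351 against 0.979 ± 0.525 CPM (log2 -0.28, SE 0.41), a difference whose 95% interval by normal approximation ran from -1.09 to 0.52. All pairs of groups overlapped, against 1.44% of genes with separate groups.

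The interaction tests whether the MOV change differs between D + Q and vehicle mice. For Fgfr3 the MOV rise was smaller with D + Q by 1.07 on the log2 scale (interaction -1.07, SE 0.26, unadjusted p = 0.000360, adjusted p = 0.555 by edgeR over 15700 genes). For Fgfr4 the interaction was -0.81 (SE 0.30, unadjusted p = 0.0110, adjusted p = 0.777 by edgeR). It was 0.21 for Fgfr1 (SE 0.10, unadjusted p = 0.0505, adjusted p = 0.855 by edgeR) and -0.76 for Fgfbp1 (SE 0.46, adjusted p = 0.877 by edgeR). Across the members 0 of 9 passed with edgeR or DESeq2 and 2 were under 0.05 before adjustment, against 2 genes (0.0127%) that passed and 5.71% under 0.05 among all genes. With Fgfr3 the term combines the higher D + Q sham level, 5.57 against 3.28 CPM, and the lower D + Q MOV level, 8.39 against 10.3 CPM. Leaving out 1 mouse at a time kept it between -1.17 and -0.94.

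Levels of different genes were compared per kilobase of the longest annotated transcript. In vehicle sham mice the order was Fgfr1 (14.6 CPM per kb), Fgf1 (9.16), Fgfrl1 (3.19), Fgf2 (2.15), Fgfbp1 (1.93), Fgf7 (1.24), Fgfr3 (0.669), Fgfr4 (0.338) and Fgfr2 (0.0140). Of neighbours in that order, Fgf2 overlapped with Fgfbp1 and Fgfbp1 with Fgf7 over the 5 mice, and the others were separate. In vehicle MOV mice Fgfr3 (2.10 CPM per kb) stood at rank 4, Fgfr4 (1.12) at rank 7 and Fgfbp1 (0.447) at rank 8, beside Fgfr1 (16.7), Fgf1 (7.15), Fgfrl1 (4.17), Fgf2 (1.72) and Fgf7 (1.28), with Fgfr2 (0.0947) last. There Fgfr3, Fgf2, Fgf7 and Fgfr4 overlapped with their neighbours, as did Fgfbp1 with Fgfr2. With D + Q the sham order had Fgfbp1 (2.72) before Fgf2 (2.20), and the MOV order had Fgf2 (1.99) before Fgfr3 (1.71).

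Among the 4 kinase receptors, Fgfr1 made up 93.4% ± 1.29 of the per-length level in vehicle sham, 88.8% ± 2.64 in D + Q sham, 83.4% ± 2.56 in vehicle MOV and 86.2% ± 2.53 in D + Q MOV mice (SD, n = 5). Fgfr3 took 4.32% ± 0.751, 7.31% ± 1.74, 10.5% ± 2.00 and 8.04% ± 2.35 in the same order of groups. Fgfr4 took 2.18% ± 0.657, 3.79% ± 1.07, 5.64% ± 1.38 and 5.28% ± 0.650. Fgfr1 thus stayed the main receptor in each mouse, from 80.8% to 94.6%. With vehicle its share was lower in every MOV mouse than in any sham mouse, although its mean level was higher. With D + Q the shares overlapped, from 84.3% to 91.3% in sham and from 83.9% to 89.0% in MOV mice. The share depends on the length used, and with the union of exons, chosen after seeing the data, Fgfr1 took 91.0%, 85.0%, 78.2% and 81.3%.

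**Figure D3:**
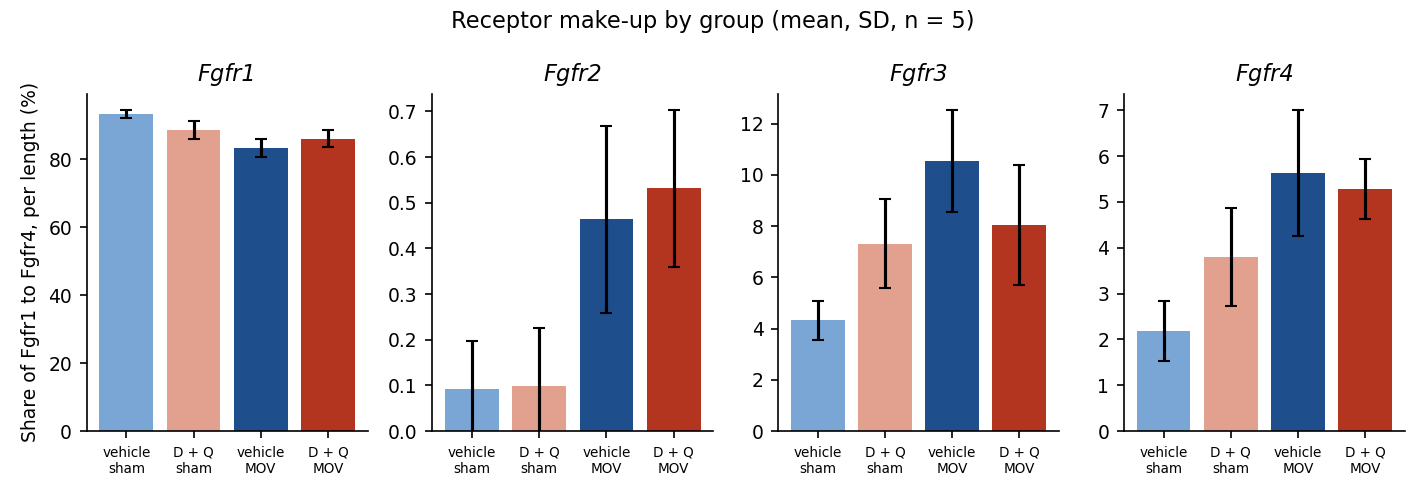
Share of each kinase receptor in the summed CPM per kb of Fgfr1 to Fgfr4 (percent, bars are means and error bars SD of 5 mice a group, each panel with its own axis from 0). The Fgfr1 share is 93.4% in vehicle sham and 83.4% in vehicle MOV mice, and the Fgfr3 share 4.32% and 10.5%.

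The other genes of the pathway were described by 5 lists, given by their counts and medians beside the median change of all genes, -0.02 with vehicle and 0.02 with D + Q. Of all genes tested, 30.7% rose and 29.8% fell with vehicle, and 34.4% rose and 30.9% fell with D + Q. Among 20 other FGF genes, 14 had a row and 8 were tested with vehicle. Of these 4 rose and 1 fell in MOV against sham with vehicle (median log2 0.59), and 5 rose and 2 fell of 9 with D + Q (median 1.03), against 4 and 7 that rose and none that fell with total counts only (medians 0.97 and 1.40). With vehicle, 5 of 8 that passed in either direction is near the 60.5% of all genes. Fgf14, an intracellular FGF homologous factor that modulates sodium channels, went from 0.150 ± 0.0732 to 1.01 ± 0.440 CPM (SD, n = 5; log2 2.75, adjusted p = 9.12e-05 by edgeR) and Fgf18, a secreted ligand with a part in bone and cartilage, from 0.544 ± 0.411 to 2.16 ± 1.08 CPM (log2 2.01, adjusted p = 0.00311 by edgeR). Fgf14 had 1 to 4 counts in vehicle sham mice, so it could enter this test only by being higher in MOV mice. Its place among the genes that rose was thus set by the count minimum. Fgf13, a further homologous factor, was lower at 22.3 ± 2.57 against 31.4 ± 1.29 CPM (log2 -0.49, adjusted p = 0.000129 by edgeR) and at -0.12 with total counts only. Fgf6, the FGF best known from skeletal muscle and named here after its values were seen, was at 9.36 ± 0.996 and 8.77 ± 1.44 CPM in vehicle sham and MOV mice (log2 -0.09, adjusted p = 0.581 by edgeR). With vehicle the count of other FGF genes that passed fell from 5 to 3 without MOV mouse 1, 2 or 4. With D + Q it fell from 7 to 4 without MOV mouse 1 or 2. The minimum of 5 mice with 10 counts was kept in these fits. A gene that reached it only through MOV mice, such as Fgf14 with vehicle, then left the test. How much of each fall came from this minimum and how much from the mouse left out was not tested.

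Co-receptors and heparan sulfate proteoglycans mostly rose, 10 of 11 with vehicle (1 fell, median 0.99) and 9 of 11 with D + Q (1 fell, median 1.04), or 10 and 11 with none lower with total counts only (medians 1.37 and 1.42). Sdc1, the cell surface proteoglycan syndecan-1, went from 1.64 ± 0.304 to 18.5 ± 4.13 CPM (SD, n = 5; log2 3.50, adjusted p = 1.86e-09 by edgeR). Gpc2, a glypican, went from 0.285 ± 0.222 to 1.70 ± 1.04 CPM (log2 2.61, adjusted p = 0.00111 by edgeR). Gpc2 had 2 to 10 counts in vehicle sham mice, so it could enter this test only if most MOV mice had 10 counts or more. Its place among the genes that rose with vehicle was thus largely set by the count minimum. Gpc1, another glypican, was at 299 ± 42.7 against 362 ± 18.0 CPM (log2 -0.27, adjusted p = 0.0189 by edgeR), but at 0.10 with total counts only.

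Of 15 tested enzymes that build or edit heparan sulfate, 8 rose and 4 fell with vehicle (median 0.31) and 7 rose and 4 fell with D + Q (median 0.13). With total counts only, 10 rose and 1 fell with vehicle (median 0.69) and 12 rose and 1 fell with D + Q (median 0.50). The list's rises were led by both extracellular sulfatases, which strip sulfate groups that FGFs need to bind. Sulf2 went from 6.66 ± 1.92 to 56.1 ± 13.0 CPM (SD, n = 5; log2 3.09, adjusted p = 9.43e-07 by edgeR) and Sulf1 from 8.80 ± 1.97 to 48.4 ± 9.09 CPM (log2 2.46, adjusted p = 8.96e-08 by edgeR). The chain-building Extl1 was at 37.3 ± 4.67 against 60.8 ± 6.69 CPM (log2 -0.70, adjusted p = 1.42e-05 by edgeR), and Extl3 at 54.6 ± 5.34 against 72.4 ± 3.33 CPM (log2 -0.40, adjusted p = 0.000217 by edgeR), or -0.03 with total counts only.

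The relay from receptor to MAPK was split, with 5 of 19 higher and 9 lower with vehicle (median -0.28) and 6 higher and 10 lower with D + Q (median -0.26). With total counts only, 8 were higher and 2 lower with vehicle and 8 and 1 with D + Q, and the medians were 0.10 and 0.11. Mapk3, the kinase ERK1, went from 14.7 ± 1.32 to 25.9 ± 2.71 CPM (SD, n = 5; log2 0.83, adjusted p = 2.12e-06 by edgeR) and the adaptor Shc1 from 20.6 ± 1.37 to 35.0 ± 3.54 CPM (log2 0.77, adjusted p = 1.71e-06 by edgeR). The RAS activator Sos2 was at 43.2 ± 4.05 against 78.1 ± 5.13 CPM (log2 -0.85, adjusted p = 2.75e-07 by edgeR).

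FGF-responsive transcription factors and feedback inhibitors rose in 13 of 16 with vehicle (median 0.68) and in 14 of 16 with D + Q (median 0.79), and none fell. With total counts only, 15 and 16 rose (medians 1.05 and 1.16). Dusp5, a phosphatase that acts on nuclear ERK, went from 0.179 ± 0.192 to 2.22 ± 0.703 CPM (SD, n = 5; log2 3.59, adjusted p = 4.43e-05 by edgeR). Dusp5 had at most 7 counts in a vehicle sham mouse, so it could enter the vehicle test only by being higher in MOV mice. Its direction there was thus set by the count minimum. Egr1, an immediate early transcription factor that many stimuli induce, averaged 8.27 ± 6.26 CPM in vehicle sham and 63.0 ± 76.7 CPM in vehicle MOV mice (log2 2.95, adjusted p = 0.0218 by edgeR), with a lowest MOV mouse at 12.0 and a highest at 195 CPM. These genes answer to many growth factors beside FGFs. Between D + Q and vehicle, 0 genes of the 5 lists passed in either surgery or in the interaction with edgeR or DESeq2. At an unadjusted p under 0.05 by edgeR there were 2 co-receptor or proteoglycan genes, 2 heparan sulfate enzymes and 3 responsive genes in MOV mice, 4, 4 and 2 of them in sham mice, and 2, 0 and 1 in the interaction. Over all genes the share under 0.05 was 8.79% in MOV mice, 10.2% in sham mice and 5.71% in the interaction.

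**Figure D4:**
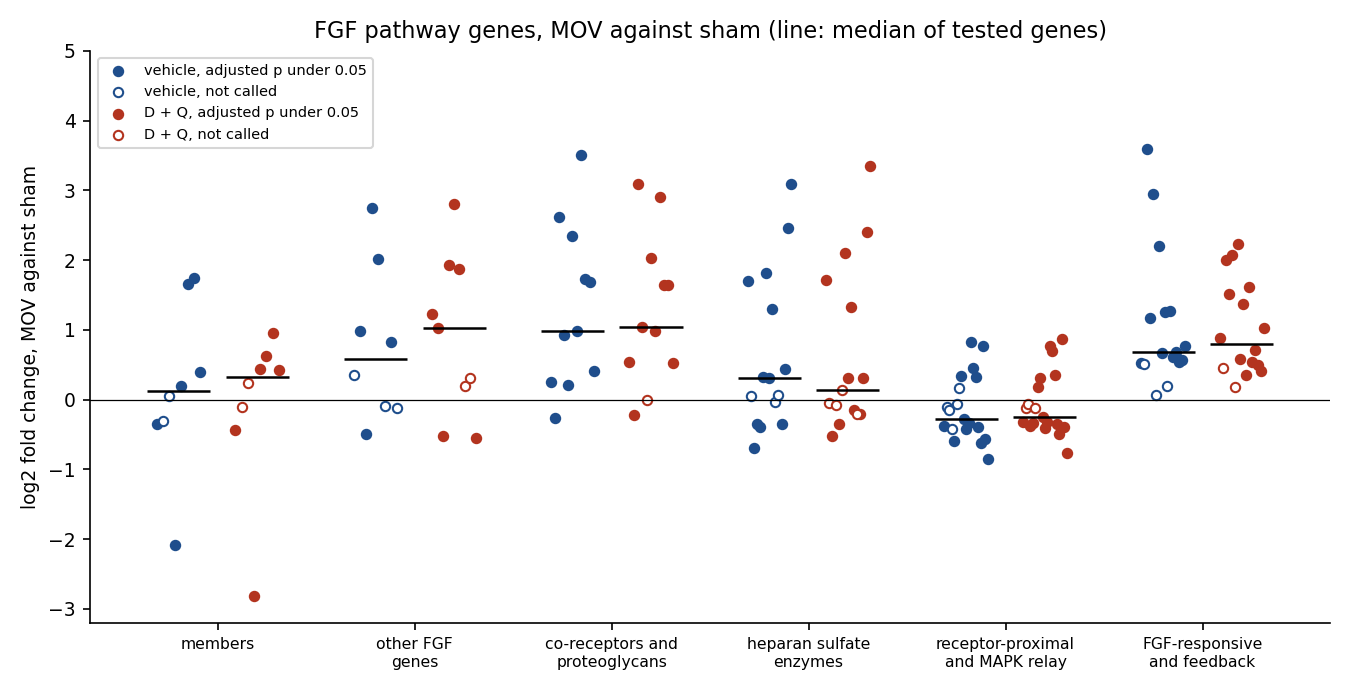
Log2 fold change of MOV against sham for each tested gene of the members and of the 5 pathway lists, with vehicle in blue and D + Q in red (filled points passed an adjusted p of 0.05, lines are medians). The median of FGF-responsive and feedback genes is 0.68 with vehicle and 0.79 with D + Q, and that of the relay -0.28 and -0.26, which total counts alone would place at 0.10 and 0.11.

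The members' patterns over the 20 mice were compared by the root mean square difference of standardized log2 CPM among 12184 genes with a mean of at least 1 CPM, where the median gene lay 1.32 to 1.44 from a member. All 20 mice share the MOV and sham groups, so likeness mostly follows the surgery. Among members the closest pair was Fgfr3 and Fgfr4 at 0.495, followed by Fgfr1 and Fgfr2 at 0.663 and Fgfr1 and Fgfrl1 at 0.680. Fgfr2 lay under the minimum of 1 CPM, with at most 6 counts in a sham mouse. Its distances rest on few counts, and no neighbours were searched for it. Nearest to Fgfbp1 were Ddit4l (0.331), an inhibitor of mTOR signaling, and Ndufaf5 (0.341), an assembly factor of mitochondrial complex I. Fgfr4 was nearest to Magi3 (0.378) and the tyrosine kinase Frk (0.386), and Fgfr3 to Ripor1 (0.416) and Pkn3 (0.422). Fgfr1 was nearest to the histone demethylase Kdm5b (0.389) and Btg3 (0.401), and Fgfrl1 to Unc13b (0.428) and Rtn3 (0.437). The ligands had more distant neighbours, Taf12 (0.469) and mt-Atp8 (0.469) for Fgf1, Btc (0.579) and Pik3cd (0.624) for Fgf2, and Ubxn11 (0.723) and Prox2 (0.777) for Fgf7.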

How the data were processed

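RNA from whole plantaris of 20 mice was sequenced. The authors aligned reads with STAR 2.7.8a to GRCm39, per the labels, quantified genes with Partek's expectation-maximization model, and deposited the estimated counts as they were, not normalized, in a column for each mouse. Of the values 20.8% are not whole (tolerance 0.01), and they were rounded before testing. Among 22660 rows, 20 carry a name already used and stayed separate. No pair of replicates differed by as little as sampling noise (lowest variance ratio 6.53).

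Differences were tested by the robust quasi-likelihood method of edgeR 4.0.16 under R 4.3.3 after TMM scaling. Genes entered where 5 or more mice of a fit had 10 counts, p-values were adjusted over all of them by Benjamini-Hochberg, and the threshold was 0.05. MOV was compared with sham in each treatment and D + Q with vehicle in each surgery, in fits of 10 mice, and the interaction was fitted to all 20. Comparisons that share a group are not independent. The SE is the log2 change over the square root of the F statistic. Alternatives were DESeq2 1.42.0, RLE factors, total counts only, no count filter, a joint fit of all 20 mice, the replicate block and leaving out each mouse.

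The members and lists were chosen with earlier results of these data known. All 9 members are named, and per list the 2 genes with the largest rise and the 2 with the largest fall that passed for MOV against sham with vehicle, any that passed for D + Q, and the 2 genes most like each member with a mean of at least 1 CPM. A gene that this rule names is not reported here. Promoters are from RefSeq (GRCm38.p6), where 7 of 9 members matched. On simulated data for MOV against sham with vehicle, a log2 change of 1 put into 200 of 14379 genes was called in 76%, with 91.6% of calls true, and a log2 change of 0.5 put into 200 of 14385 genes in 35%. In the real comparison 60.5% of genes passed, a far larger share than was changed here, so these rates do not carry over to it.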

Additional observations from a re-analysis of the deposited data

Results flagged for a closer look

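A lone mouse stood apart from the other 4 of its group, by Dixon's criterion at the 95% level, in 5 of the 36 combinations of gene and group. Chance gives about 1 in 20 for independent, normally distributed values. The genes share mice, and the few counts of Fgfr2 are not such values. The Fgfr1 and Fgfr4 flags crossed the limit narrowly, with gaps of 0.713 and 0.714 of the range against a critical 0.71. All 5 flags lie in D + Q groups. Fgfbp1 was at 9.81 CPM in D + Q sham mouse 2, with the nearest mouse at 5.53 CPM. Without it the MOV fall with D + Q was -2.57 on the log2 scale. Fgfr1 was at 126 CPM in D + Q MOV mouse 3, with the nearest at 112 CPM. Fgf7 was at 4.10 CPM in the same mouse, below the nearest at 5.66 CPM. Fgfr4 was at 5.51 CPM in D + Q MOV mouse 4, with the nearest at 4.45 CPM. Fgfr2 was at 0.291 CPM in D + Q sham mouse 4, which is 6 counts, against 1 count or fewer in the other mice.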

How the results depend on the processing

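Fgfr2 stayed under the count minimum in the MOV and sham comparisons. It passed for MOV in both treatments in the fits that included it, those with no count filter and with all 20 mice. For D + Q against vehicle in sham, 1 member (Fgfr3) passed in place of 0 with DESeq2, total counts only and no count filter, and 0 to 1 when 1 mouse was left out. DESeq2 called 133 genes there in place of 30, total counts only 49, no count filter 67, and all 20 mice in one fit and the replicate block 19 each, and the count ran from 2 to 74 when 1 mouse was left out. With all 20 mice in one fit and with the block, Fgf2 passed for MOV against sham with vehicle at -0.32 and -0.33 (adjusted p = 0.0245 and 0.0395), as it did without vehicle MOV mouse 4 (-0.42, adjusted p = 0.00927), so 7 members passed with the block in place of 6. The Fgfr1 call was lost without the count filter (adjusted p = 0.0601). With total counts only, directions turned for Fgf1 (0.023) and Fgf2 (0.079) in MOV against sham with vehicle, for Fgf2 with D + Q (0.26, adjusted p = 0.0349) and for Fgfr4 in D + Q against vehicle in MOV (0.048), and the relay with D + Q counted 9 called in place of 16. With D + Q the Fgf1 call was then lost (-0.07, adjusted p = 0.528) and Fgf7 passed (0.60, adjusted p = 0.00260). The Fgfr4 difference also turned with the block (0.012), and the Fgfrl1 interaction with DESeq2 (0.0021), RLE factors (0.0019) and total counts only (0.00998). The block gave 2 called genes for D + Q against vehicle in MOV, where DESeq2 gave 11, and 1 in the interaction. The mouse numbers do not pair the samples: same-number correlations ran from -0.257 to 0.279, at most 1 of 5 pairs per comparison was over 0.1, and at most 1 of 5 mice correlated best with its own number. The block changed no other member call. When 1 mouse was left out, directions turned for Fgf7 in MOV against sham with vehicle (-0.066 to 0.22), Fgfr4 in D + Q against vehicle in MOV (-0.10 to 0.079), Fgf7 (-0.097 to 0.18) and Fgf2 (-0.064 to 0.055) in sham, and in the interaction for Fgfrl1 (-0.065 to 0.065), Fgf7 (-0.022 to 0.27) and Fgfr2 (-0.41 to 1.16). The Fgfr1 receptor share with counts not divided by length was 95.0% in vehicle sham, 86.9% in vehicle MOV and 89.3% in D + Q MOV mice, and with the union of exons, added after seeing the data, 91.0% and 78.2% in sham and MOV mice with vehicle and 85.0% and 81.3% with D + Q. Beyond total counts only and the union of exons, whose construction moves the scale, the cause of these changes was not tested. Of 243 member values under other settings, 227 kept direction and side of the threshold.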
